A study of Mus musculus with 2 samples.

Results

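The antioxidant defence genes described here were Hmox1, Slc7a11, Gclm, Gpx4, Txn1, Prdx1, Sod1, Sod2, Cat and Nqo1, 10 of the 32285 genes in each matrix. They were listed by name, with earlier results of these data known, and were read in cells that met the sorting and quality limits of the study. Making melanin produces hydrogen peroxide and reactive quinones, so pigment cells depend on enzymes that remove oxidants. Many of these enzymes are under the transcription factor NRF2 (Nfe2l2), which KEAP1 marks for destruction in unstressed cells and which competes with the haem-sensing repressor BACH1 for the same DNA element, a competition best known at Hmox1. Loss of such defences with age has been linked to hair greying.

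The study sequenced 2 mouse libraries of GFP+ melanocytes with droplet-based 3′ counting of unique molecular identifiers (UMIs). Both came from Dct-rtTA; tetO-H2B-GFP mice, in which the Dct promoter drives the transactivator, and both groups of mice had doxycycline chow (1 g per kg) for 4 days to switch on nuclear GFP. The early-anagen McSCs (melanocyte stem cells) came from the back skin of mice depilated at 8 weeks and sampled 4 days later, and the bulb melanocytes, which are mature pigment-producing cells, came from dissected anagen VI hair bulbs at 5 weeks. Cells of 4 mice were combined in each library, so there was 1 library per condition and no test between conditions was possible. The early-anagen library was made with the v3 kit after trypsin. The bulb library was made with the v2 kit after EDTA and a collagenase and dispase digest. The study describes no depilation of the bulb mice, and condition, depilation, age, kit and dissociation cannot be told apart.

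Cells were kept with at least 1 Dct UMI, fewer than 3 UMIs of Krt10 and Krt14 together, under 5% mitochondrial UMIs and over 10000 (early anagen) or 5000 (bulb) UMIs. This left 2785 of 11010 early-anagen barcodes, with a median of 24528 UMIs, and 3734 of 4327 bulb barcodes, with a median of 14286.5 UMIs. All 8 melanocyte markers (Dct, Tyrp1, Pmel, Mlana, Tyr, Mitf, Kit and Sox10) were present in 85.3% or more of the early-anagen cells and 75.5% or more of the bulb cells. The 8 epidermal markers summed to 37.9 and 22.2 CPM (UMIs of a gene in each 1000000), and the immune, fibroblast, endothelial and erythroid lists each to 7.39 CPM or less in either library. Dct is in the melanocyte list and Krt10 and Krt14 are in the epidermal list, so the cell limits set a floor for Dct and a cap for these keratins. The cap was a count of UMIs, so in CPM it was tighter for cells with more UMIs, also in the splits below. The libraries shared 1 barcode sequence. Levels below are CPM of the summed UMIs of a group of cells, intervals are 95% and cover counting error only, and levels are compared within a gene, not between genes, since 3′ counts do not set a common scale between genes.

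Hmox1 and Slc7a11 were the members with the largest excess in bulb melanocytes, and Sod1 was the one with the clearest deficit. HMOX1 degrades haem to biliverdin, iron and carbon monoxide and is the classic NRF2 and BACH1 target. Its gene (ENSMUSG00000005413) spans chr8:75093621-75100589 on the plus strand of GRCm38. Its level was 31.5 CPM (30.3 to 32.8, 2387 UMIs) in early-anagen McSCs and 211 CPM (208 to 215, 11810 UMIs) in bulb melanocytes. The 6.70-fold difference was 2.74 on the log2 scale (2.68 to 2.81) and stayed between 2.45 and 3.06 under 14 other settings. Slc7a11 (ENSMUSG00000027737) spans chr3:49892526-50443614 on the minus strand. SLC7A11, which with SLC3A2 forms the cystine importer that feeds glutathione synthesis, was at 9.91 CPM (750 UMIs) in early anagen and 43.3 CPM (2421 UMIs) in the bulb. Its log2 ratio was 2.13 (2.01 to 2.25).

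**Figure D1:**
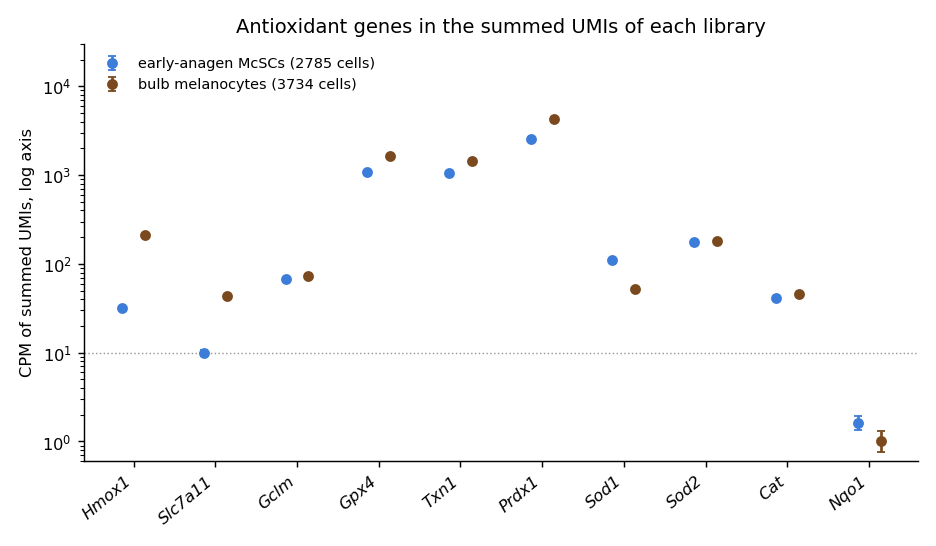
Levels of the 10 genes in CPM on a log axis, for 2785 early-anagen McSCs (blue) and 3734 bulb melanocytes (brown), each point the summed UMIs of 1 library with its 95% counting interval and the dotted line at 10 CPM. Hmox1 (31.5 against 211 CPM) and Slc7a11 (9.91 against 43.3) lie far apart, Sod1 lies lower in the bulb (111 against 52.3), and Sod2, Gclm and Cat nearly coincide.

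The partner of SLC7A11 differed as much. Slc3a2, a chain shared by several amino acid transporters, was at 368 CPM in early anagen and 2289 CPM in the bulb, a log2 ratio of 2.64 (2.62 to 2.66). The genes of glutathione synthesis itself differed less. GCLM is the regulatory subunit of glutamate-cysteine ligase, the first enzyme of that synthesis. It was at 67.9 CPM in early anagen and 73.9 CPM in the bulb, a log2 ratio of 0.12 (0.06 to 0.18) that became -0.037 when mitochondrial, ribosomal protein and pigmentation genes were left out of the totals. Gclc, the catalytic subunit, gave 0.16 (0.08 to 0.24), and Gss, which completes the synthesis, 0.81 (0.71 to 0.91).

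Gpx4, Prdx1 and Txn1, which act in peroxide reduction, were each moderately higher in the bulb. Other genes of peroxide reduction, Prdx2 (-2.27) and Gpx7 (-2.72) among them, were lower there. GPX4, the selenoenzyme that reduces lipid peroxides in membranes and holds back ferroptosis, was at 1072 and 1659 CPM, a log2 ratio of 0.63 (0.62 to 0.64). PRDX1, a peroxiredoxin that removes hydrogen peroxide, was at 2568 and 4261 CPM, a ratio of 0.73 (0.72 to 0.74). TXN1, the thioredoxin that recycles peroxiredoxins, was at 1064 and 1459 CPM, a ratio of 0.46 (0.44 to 0.47). None of the 3 reached 2-fold here, although Prdx1 did (1.04) with TMM scaling, and all were higher in the bulb under every one of the 14 other settings.

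The dismutases and catalase took different directions. SOD1, the cytosolic copper and zinc superoxide dismutase (gene ENSMUSG00000022982, chr16:90220754-90226329, plus strand), was at 111 CPM in early anagen and 52.3 CPM in the bulb, a log2 ratio of -1.09 (-1.15 to -1.03). Sod1 was lower in the bulb under all 14 settings, but by less than 2-fold with TMM scaling (-0.77) and in cells without a UMI of Mki67 or Top2a (-0.996). SOD2, the mitochondrial manganese enzyme, was at 175 and 183 CPM, a ratio of 0.06 (0.02 to 0.10) that turned to -0.10 with the reduced total. Cat, the catalase of peroxisomes, was at 41.2 and 45.7 CPM, a ratio of 0.15 (0.07 to 0.23) that turned to -0.0098 with the reduced total. Ccs, the chaperone that loads copper into SOD1, differed in the other direction from Sod1, at 57.9 and 127 CPM and a ratio of 1.14 (1.08 to 1.19).

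Nqo1, the quinone reductase used widely as an NRF2 marker, was rarely detected. It had 123 UMIs in early anagen (1.62 CPM) and 56 UMIs in the bulb (1.002 CPM), a log2 ratio of -0.70 (-1.18 to -0.23).

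In all, 9 of the 10 genes reached 10 CPM in at least 1 library, Nqo1 being the exception. Of these, Hmox1 and Slc7a11 were at least 2-fold higher in the bulb, against 16.3% of 8020 genes at that level, and Sod1 was at least 2-fold lower, against 28.7%. Slc7a11 reached 10 CPM through the bulb alone, so it could pass only as higher. The median log2 ratio of the 9 was 0.46, beside -0.19 over the 8020 genes at 10 CPM or more. Over the 15502 genes with UMIs in both libraries the median was -0.42, which became -0.11 with TMM scaling and -0.58 with the reduced total. The share of all past-fold genes that were higher in the bulb, 36.2%, became 53.4% with TMM scaling.

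Around these genes, the pathway lists showed large differences in both directions. Their counts stand beside 16.3% of all genes at 10 CPM or more being at least 2-fold higher in the bulb and 28.7% being lower. Among 10 regulators, with a median log2 ratio of -0.71, none was at least 2-fold higher in the bulb and 4 were lower. Bach1 was among these 4, at 45.0 CPM in early anagen and 8.05 CPM in the bulb (log2 ratio -2.48, -2.63 to -2.34), as were Cul3, the ubiquitin ligase scaffold that works with KEAP1 (-3.13), and the small Maf partner Maff (-2.29). Nfe2l2 itself was at 137 and 99.2 CPM (-0.46) and Keap1 at 28.5 and 23.1 CPM (-0.30). At the RNA level Bach1 was lower, and Nfe2l2 not higher, in the library with more Hmox1. Whether either regulator had a part in the Hmox1 level was not tested.

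Of 16 glutathione genes, with a median of 0.19, 4 were at least 2-fold higher and 3 lower. Gsta4, a glutathione transferase for the lipid peroxidation product 4-hydroxynonenal, was at 26.1 CPM in early anagen and 484 CPM in the bulb, a log2 ratio of 4.21, and the microsomal transferase Mgst1 gave 1.44. The pi-class transferase Gstp1 was at 2925 CPM in early anagen and 211 CPM in the bulb (-3.79), with Gpx7 (-2.72) and glutathione reductase Gsr (-1.02) also lower. Gstp2 and Gstp3 are close copies of Gstp1, and the split of reads between them was not tested.

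Of 13 thioredoxin and peroxiredoxin genes, with a median of 0.72, 6 were higher and 2 lower. Srxn1, the sulfiredoxin that repairs over-oxidised peroxiredoxins, gave 2.19, the methionine sulfoxide reductase Msrb1 1.56 and Prdx6 1.19. Txnip, the inhibitor of thioredoxin, gave -3.36 and Prdx2 -2.27. The peroxiredoxins did not share 1 direction, with Prdx1 and Prdx6 higher and Prdx2 lower in the bulb under TMM and under the reduced total as well.

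Of 9 haem, iron and metal genes at 10 CPM or more, with a median of 0.03, 2 were higher and none lower. Ftl1, the ferritin light chain that stores the iron HMOX1 releases, was at 2832 CPM in early anagen and 21366 CPM in the bulb (2.92), with the near-identical Ftl1-ps1 also in the matrices. Hmox2, the constitutive haem oxygenase, gave 1.08. Of 8 NADPH-supplying genes, with a median of 1.12, 4 were higher, among them malic enzyme Me1 (3.41) and the pentose phosphate enzymes Pgd (1.71) and G6pdx (1.65), and mitochondrial Idh2 was lower (-1.92). In the lipid peroxidation list, Aifm2, the ferroptosis suppressor FSP1, gave 2.99, Lpcat3 2.18 and Acsl4 -1.13. Like Slc7a11, some of these genes reached 10 CPM in 1 library alone and could be counted in 1 direction only. Srxn1 (2.77 against 12.7 CPM) and Aifm2 (2.05 against 16.2 CPM) did so in the bulb, and Bach1, Maff and Gpx7 in early anagen.

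**Figure D2:**
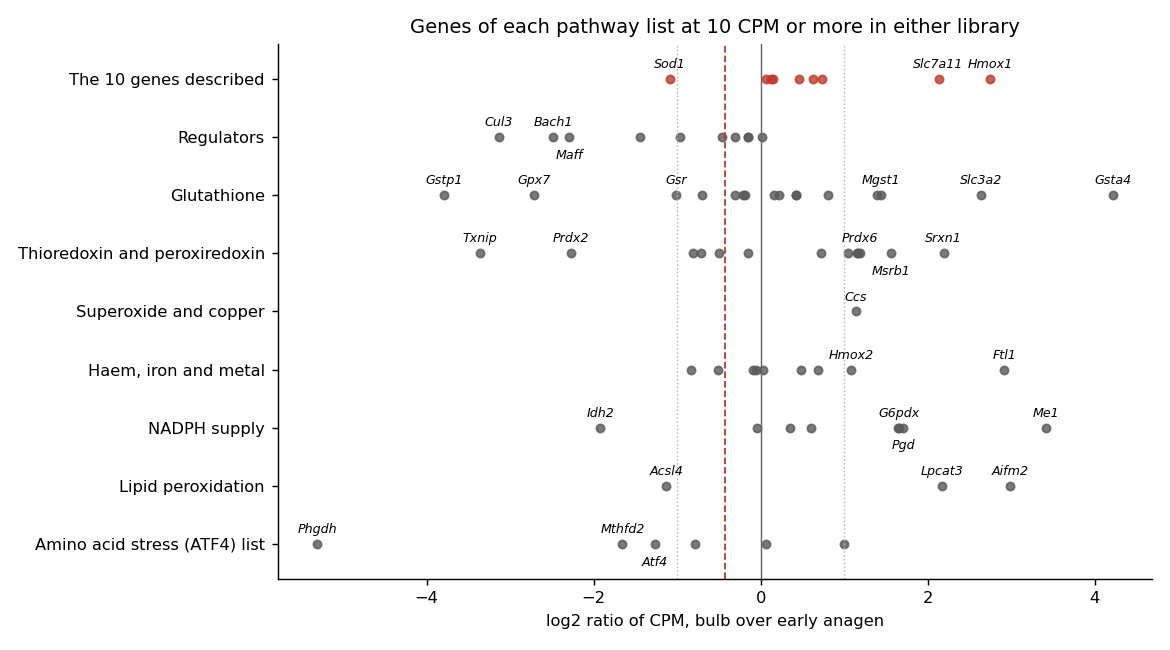
Log2 ratios of CPM, bulb over early anagen, for each gene of the antioxidant set (red) and the pathway lists (grey) at 10 CPM or more in either library; the dashed line is the median of all genes (-0.42) and dotted lines mark 2-fold. The regulators lie at or left of 0 apart from 1 gene, and Hmox1, Slc7a11, Slc3a2, Gsta4, Ftl1, Me1 and Aifm2 lie more than 2 log2 units to the right.

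Genes that respond to cell dissociation and heat differed between the libraries too. The 19 genes of that list summed to 6754 CPM in early anagen and 4386 CPM in the bulb. In it 1 gene was at least 2-fold higher and 9 were lower, against 16.3% and 28.7% of 8020 genes at 10 CPM or more. Hspa1b (-11.0), Hspa1a (-6.11) and Hspb1 (-3.69) were the lowest, and Dusp1 (2.62) was higher. When cells were ranked by the share of their UMIs in this list and divided into 4 equal groups, Hmox1 was at 38.2, 26.3, 29.5 and 38.8 CPM in early anagen and 191, 197, 195 and 234 CPM in the bulb, from the lowest to the highest group. Every bulb group lay above every early-anagen group, and without the highest 25% of cells the log2 ratio of Hmox1 was 2.76. The ratios of Slc7a11 (2.13), Sod1 (-1.08), Prdx1 (0.71) and Gpx4 (0.62) stayed close to their values over all cells when those cells were left out. Such a ranking within a library does not measure a protocol that differed between the libraries, and dissociation and condition cannot be told apart.

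Promoter sequence around the NRF2 and MITF letters is shown here because Hmox1 and Slc7a11 stood out among genes often listed as common NRF2 targets. The RefSeq promoter table (GRCm38.p6) held 9 of the 10 genes, all but Hmox1. In the 250 bases before the start, the antioxidant response element core TGACNNNGC occurred on either strand in Gclm, Prdx1 and Sod1, and in 10.2% of all 32851 promoters. The letters TCATGTG, known from MITF sites in pigmentation genes, occurred in Slc7a11 and in 3.25% of all promoters, and CACGTG occurred in none of the 9 and in 6.02% of all. The Prdx1 match overlapped TGACTCA, the AP-1 element, which occurred in 4.46% of all promoters. Each stretch is written 5′ to 3′ on the strand of the gene with the match in capitals, which for the first 3 is the reverse complement of TGACNNNGC.
Gclm, chr3:122245398-122245456, plus strand: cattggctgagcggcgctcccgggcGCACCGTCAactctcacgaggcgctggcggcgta
Prdx1, chr4:116685441-116685499, plus strand: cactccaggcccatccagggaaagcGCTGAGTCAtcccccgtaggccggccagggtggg
Sod1, chr16:90220681-90220739, plus strand: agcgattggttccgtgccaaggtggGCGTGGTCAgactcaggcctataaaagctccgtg
Slc7a11, chr3:50443657-50443713, minus strand: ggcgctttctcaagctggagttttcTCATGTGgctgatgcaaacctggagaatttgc
The 3 genes that held TGACNNNGC had log2 ratios of 0.12, 0.73 and -1.09 between the libraries.

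Oca2, a melanosomal transporter gene that the study used to mark differentiating McSCs, divided the early-anagen library next. Each cell was thinned to 10000 UMIs and called Oca2+ from 1 Oca2 UMI, which gave 292 Oca2+ and 2493 Oca2- cells. Without thinning 454 of the 2785 cells held an Oca2 UMI, so some Oca2- cells had one before thinning. The Oca2+ cells held 58.6 CPM of Hmox1 (171 UMIs) and the Oca2- cells 30.2 CPM (753 UMIs), a log2 ratio of 0.96 (0.71 to 1.20). It was the only member of the 8 at 10 CPM or more past 1.5-fold, against 5.83% of 7734 genes higher at that level and 6.39% lower. Over 17 other settings its ratio ran from 0.80 to 1.11.

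The other antioxidant genes at 10 CPM or more differed little between Oca2+ and Oca2- cells. The ratios were -0.02 for Gpx4 (-0.07 to 0.04), -0.01 for Sod1 (-0.19 to 0.16), -0.04 for Cat (-0.32 to 0.24) and -0.18 for Gclm (-0.43 to 0.05), each with an interval that held 0. Sod2 was lower in Oca2+ cells by -0.20 (-0.34 to -0.06), Txn1 gave -0.06 (-0.11 to -0.001), which changed sign in cells without a UMI of Mki67 or Top2a, and Prdx1 gave 0.04 (0.01 to 0.08), which changed sign under 4 of the 17 settings, TMM scaling among them. Slc7a11, with 16 UMIs in Oca2+ and 193 in Oca2- cells, gave -0.50 (-1.33 to 0.24). Its ratio was above 0 under 5 of the 17 settings, up to 0.47 with another thinning seed. Nqo1, with 6 and 33 UMIs, gave 0.63 (-0.91 to 1.91). Slc7a11 and Nqo1 were below 10 CPM in both groups, and no difference is read from so few UMIs. The median log2 ratio of the 8 was -0.03, beside 0.02 over all genes at 10 CPM or more.

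Among the regulator, glutathione and NADPH lists, Slc3a2 (0.86), Me1 (0.71) and Gsta4 (0.64) were, with Hmox1, higher in Oca2+ cells by over 1.5-fold, and Mafk (-0.70) and Gpx7 (-0.64) were lower. The Oca2+ cells held 64.0 CPM of Bach1 and the Oca2- cells 46.0 CPM, a ratio of 0.48 (0.25 to 0.70). Within early anagen Hmox1 and Bach1 RNA were thus higher in the same group of cells, unlike between the libraries. Whether BACH1 had a part in the Hmox1 level was not tested. Nfe2l2 gave -0.11 (-0.27 to 0.03) and Keap1 0.05 (-0.30 to 0.37). No gene of the thioredoxin and peroxiredoxin, superoxide or lipid peroxidation lists at 10 CPM or more passed 1.5-fold. The Oca2 calls carried other pigment genes with them, 11 of 13 in that list being past 1.5-fold higher, beside 5.83% of 7734 genes. Oca2 itself, which the split fixes, is among the 11. Before thinning the Oca2+ cells had a median of 27409 UMIs and the Oca2- cells 24119. In the dissociation list 1 of 19 genes was past 1.5-fold higher and 4 were lower, beside 5.83% and 6.39% of 7734 genes. That list summed to 6702 and 7230 CPM in Oca2+ and Oca2- cells, and the epidermal markers to 35.3 and 46.2 CPM.

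**Figure D3:**
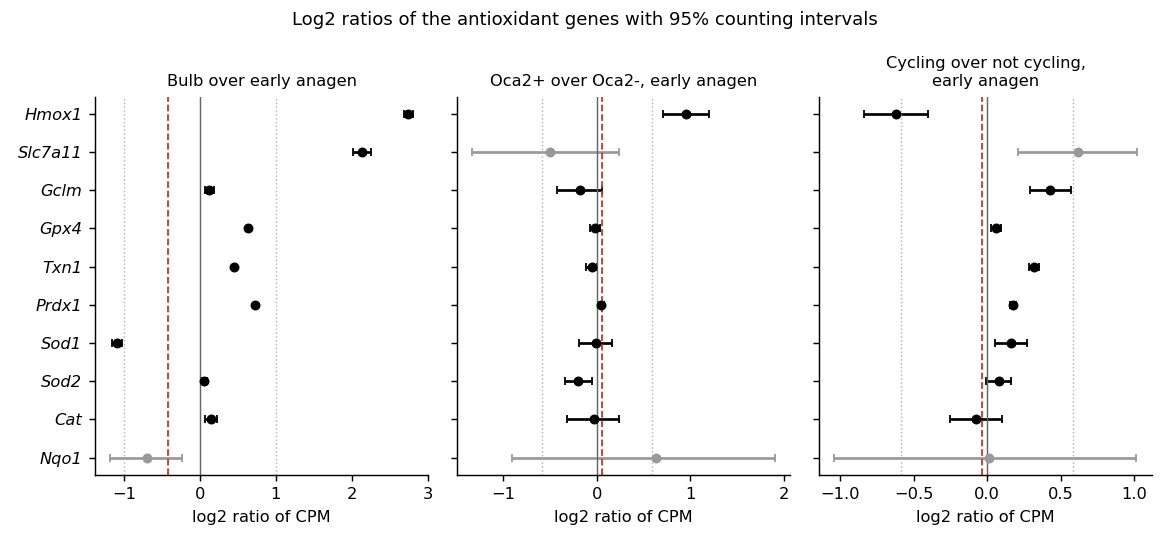
Log2 ratios of CPM with 95% counting intervals for the 10 genes in 3 comparisons, bulb over early anagen (left), Oca2+ over Oca2- early-anagen cells (middle) and cycling over non-cycling early-anagen cells (right), with separate horizontal scales. Grey points are below 10 CPM, the dashed line is the median of all genes, and dotted lines mark 2-fold (left) or 1.5-fold; Hmox1 lies right of the upper dotted line in the left and middle panels (2.74 and 0.96) and left of the lower one in the right panel (-0.62).

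Set side by side with bulb cells thinned to the same depth, Hmox1 stood higher with more Oca2 within each library. Hmox1 was also higher in bulb cells without Oca2 than in any early-anagen class. It was at 30.2 CPM (28.1 to 32.4) in 2493 early-anagen cells without an Oca2 UMI at this depth. The level was 51.1 CPM (39.9 to 64.4) in 139 cells with 1 Oca2 UMI and 65.4 CPM (53.2 to 79.5) in 153 cells with 2 or more. In the bulb it was 153 CPM (133 to 174) in 148 cells without an Oca2 UMI and 209 CPM (204 to 214) in 3139 cells with one. Of neighbouring groups only the classes with 1 and with 2 or more Oca2 UMIs overlapped. Slc3a2 had the same order, at 340, 571, 659, 1932 and 2305 CPM. The immune markers summed to 2.17, 2.88, 7.19, 5.41 and 7.33 CPM over these groups, and their part in the Hmox1 level was not tested. The step between the libraries remained when only Oca2+ cells were compared, at 1.84 (1.62 to 2.06) for Hmox1, and so did that of Slc7a11 at 2.88 (2.17 to 3.69) and of Sod1 at -0.999 (-1.18 to -0.82).

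Slc7a11 followed another order. Its level was 7.74 CPM (6.69 to 8.91), 5.04 CPM (2.02 to 10.4) and 5.88 CPM (2.69 to 11.2) in the early-anagen classes with 0, 1 and 2 or more Oca2 UMIs, which overlapped. In the bulb it was 93.9 CPM (79.0 to 111) in the 148 cells without an Oca2 UMI and 40.2 CPM (38.0 to 42.5) in those with one, a log2 ratio of -1.22 (-1.48 to -0.96) for Oca2+ over Oca2- bulb cells. At least 1 Slc7a11 UMI was seen in 64 of the 148 (43.2%, 35.1 to 51.6) and in 788 of the 3139 (25.1%, 23.6 to 26.7). Hmox1 had the opposite direction in the bulb, 0.45 (0.26 to 0.65), and Slc3a2 gave 0.25 (0.20 to 0.31), so the 2 chains of the cystine importer did not go together there.

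The bulb cells without Oca2 were few and differed in other ways. The melanocyte markers summed to 44957 CPM in them and 68601 CPM in the rest, 9.46% and 1.75% had a UMI of Mki67 or Top2a, and the epidermal markers summed to 28.4 and 22.1 CPM. The part of these differences in the Slc7a11 level was not tested. Gpx4 (-0.01, -0.07 to 0.05), Sod1 (-0.19, -0.50 to 0.14), Sod2 (-0.12, -0.29 to 0.05), Gclm (0.21, -0.09 to 0.52) and Cat (0.22, -0.15 to 0.63) had intervals that held 0 in this split. Txn1 was at 0.30 (0.23 to 0.37) and Prdx1 at 0.06 (0.02 to 0.10). Nqo1 gave -2.36 (-3.58 to -0.92), from 29 UMIs in bulb cells with Oca2 and 7 in those without, and no difference is read from so few.

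**Figure D4:**
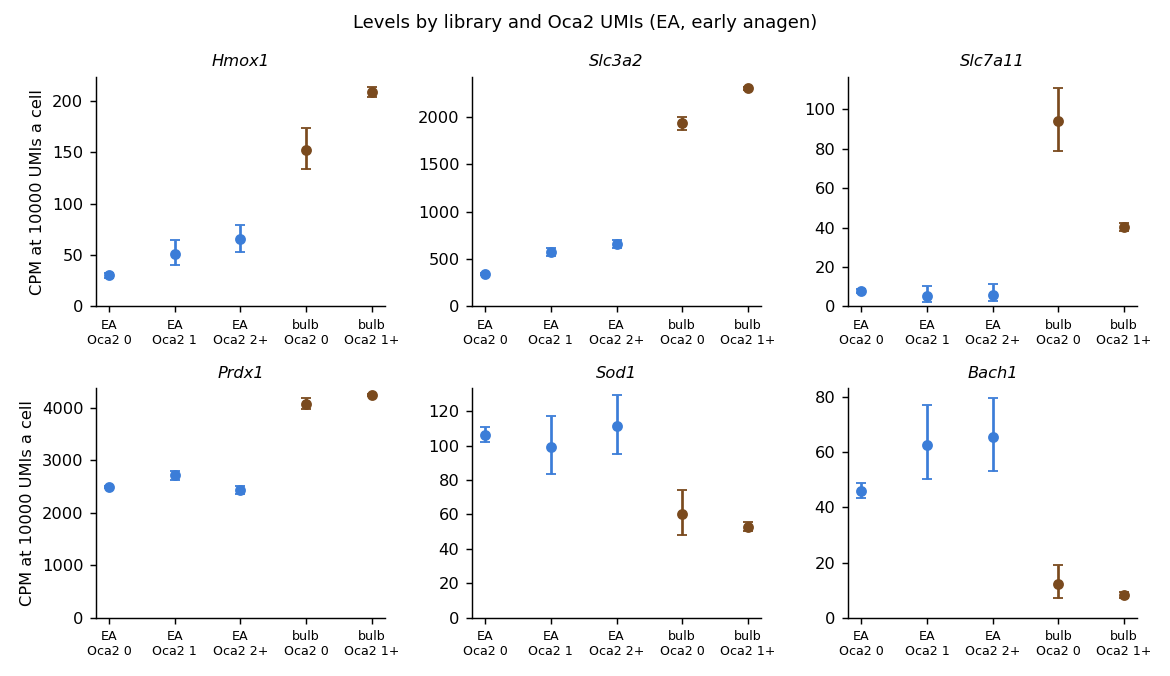
Levels in CPM from cells thinned to 10000 UMIs, with 95% counting intervals, for early-anagen (EA, blue) and bulb (brown) cells grouped by their Oca2 UMIs. Hmox1 and Slc3a2 step up from left to right, Slc7a11 is highest in bulb cells without Oca2 (93.9 CPM), Prdx1 and Sod1 differ mainly between libraries, and Bach1 is highest in the early-anagen cells with Oca2 and lowest in the bulb.

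Cycling cells were compared because the study asked whether proliferative and nonproliferative early-anagen McSCs differ. With cycling called from 1 UMI of Mki67 or Top2a at 10000 UMIs, 993 cells were cycling and 1792 were not. Before thinning the cycling cells had a median of 34875 UMIs and the others 21039, and the epidermal markers summed to 31.9 and 52.3 CPM. Cycling cells held 24.7 CPM of Hmox1 and the others 37.9 CPM, a log2 ratio of -0.62 (-0.84 to -0.41). That lay just past 1.5-fold, and Hmox1 was the only one of the 8 members tested to do so in either direction, beside 8.77% of 7757 genes higher and 3.74% lower. Over 12 other settings the ratio ran from -0.77 to -0.51 and was short of 1.5-fold in 5 of them, so the direction was steadier than the call.

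Gclm and Txn1 had the opposite direction. Gclm reached 74.0 CPM in cycling cells against 55.0 CPM in the rest (0.43, 0.29 to 0.57), and Txn1 at 1163 and 934 CPM (0.32, 0.28 to 0.35). Prdx1 gave 0.18 (0.15 to 0.20), Sod1 0.16 (0.05 to 0.27) and Gpx4 0.06 (0.03 to 0.09), and none of these 5 changed sign under the other settings. Slc7a11, below 10 CPM in both groups, gave 0.62 (0.21 to 1.02), from 96 and 113 UMIs. Sod2 (0.08, -0.01 to 0.16) and Cat (-0.08, -0.25 to 0.10) had intervals that held 0, as did Nqo1 with 14 and 25 UMIs.

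The pathway lists did not share that direction. Of 15 glutathione genes 3 were above 0 and 12 below, with a median of -0.19. Of 12 thioredoxin and peroxiredoxin genes 6 were above and 6 below. Over all 7757 genes at 10 CPM or more, 3703 were above and 4054 below. Glutathione reductase Gsr (0.62), the endoplasmic reticulum peroxiredoxin Prdx4 (0.82) and biliverdin reductase Blvra (0.85) were higher in cycling cells, and Gpx3 (-0.82), Mgst1 (-0.70), Gstm1 (-0.65) and Txnip (-0.60) were lower. The reductase that takes up the product of HMOX1 was thus higher in the cells with less Hmox1. Bach1 gave -0.33, Nfe2l2 -0.30 and Keap1 0.07. The dissociation list came to 6369 CPM in the cycling group and 7621 CPM in the other. In it 7 of 19 genes were past 1.5-fold lower, as were 2 of 13 pigmentation genes, beside 3.74% of 7757 genes. Cycling and Oca2 were linked, with 22.3% of Oca2+ and 37.2% of Oca2- cells cycling. Hmox1 was higher in Oca2+ cells also among those without a UMI of Mki67 or Top2a before thinning (0.80). It was lower in cycling cells also among those without an Oca2 UMI before thinning (-0.51).

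Cells were thinned to 5000 UMIs to compare how many held each transcript. At least 1 Hmox1 UMI was found in 13.7% of early-anagen McSCs (12.4 to 15.0) and 61.1% of bulb melanocytes (59.5 to 62.6). Without thinning the shares were 44.5% and 89.3%. In 81 Krt10 or Krt14 epidermal cells of the early-anagen library, thinned alike, 4 cells (4.94%, 1.36 to 12.2) had a Hmox1 UMI. These cells had at least 10 UMIs of Krt10 and Krt14 together, and more of these than of Dct. The UMI and mitochondrial limits were the same. Without thinning 57 of the 81 held a Dct UMI, with up to 294 in a cell, so melanocyte transcripts were present in this group. At 2 or more UMIs stood 2.33% of early-anagen and 26.2% of bulb cells, so the difference was not held by a few cells in the bulb.

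**Figure D5:**
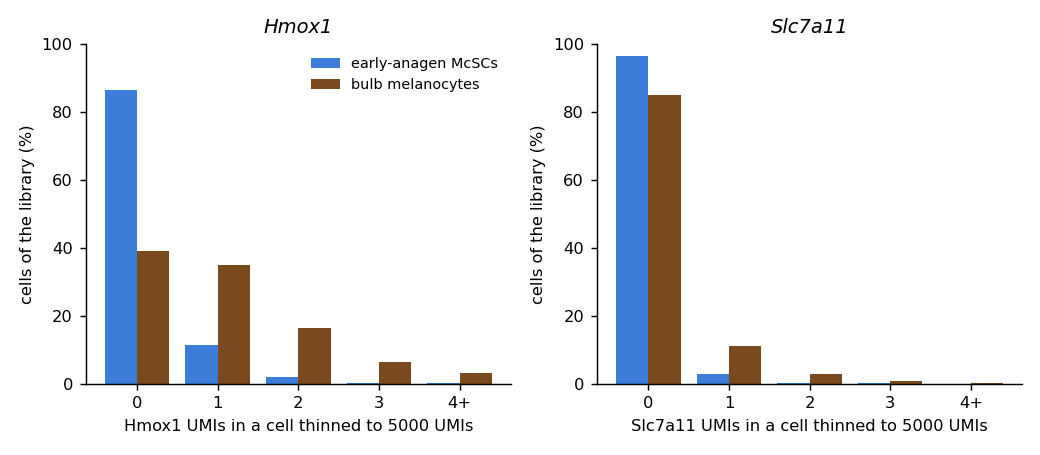
Share of cells with 0, 1, 2, 3 or 4 or more UMIs of Hmox1 (left) and Slc7a11 (right) after thinning each cell to 5000 UMIs, for early-anagen McSCs (blue) and bulb melanocytes (brown). Hmox1 was undetected in 86.3% of early-anagen and 38.9% of bulb cells, and Slc7a11 in 96.5% and 85.0%.

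Slc7a11 was seen in 3.48% (2.83 to 4.23) of early-anagen and 15.0% (13.9 to 16.2) of bulb cells, or 15.3% and 31.8% without thinning. At this depth 0 of the 81 epidermal cells held a UMI of it (0%, 0 to 4.45). Without thinning 9 of the 81 (11.1%) held one. Sod1 was in 43.1% and 21.6% (86.8% and 51.6% without thinning), beside 18.5% of epidermal cells. Sod2 was in 55.8% and 59.7%, Gclm in 26.0% and 29.99%, and Cat in 19.8% and 20.2% of early-anagen and bulb cells, beside 37.0%, 24.7% and 14.8% of epidermal cells. Without thinning those shares were 94.6% and 90.8%, 72.7% and 62.1%, and 62.8% and 47.9%, an order that followed depth and not the CPM. Gpx4, Txn1 and Prdx1 were in 98.3% or more of the cells of each library, and in 66.7%, 86.4% and 96.3% of the epidermal cells. Nqo1 was in 0.934% and 0.509%, beside 1 of 81 epidermal cells (1.23%). Without thinning the shares were 4.13%, 1.42% and 17.3%, so Nqo1 in the melanocytes did not exceed the level in the epidermal cells and no difference was read from it. In each library a cell held a median of 5 of the 10 genes at this depth.

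Among cells of a library, 5 of the 10 antioxidant genes varied about as counting alone gives, and all 5 had under 1 UMI a cell on average at this depth. The Fano factor, the variance over the mean and 1 for Poisson counts, lay between 0.985 and 1.08 for Sod1, Sod2, Gclm, Cat and Nqo1 in both libraries at 5000 UMIs. Hmox1 was at 1.42 in early anagen and 1.24 in the bulb, and the highest 5% of cells held 48.2% and 19.7% of its UMIs. Slc7a11 was at 1.48 and 1.65, and in the bulb the highest 5% of cells held 51.7% of its UMIs, with up to 10 UMIs in a cell. Prdx1 was at 2.08 and 1.93, Txn1 at 1.49 and 1.76, and Gpx4 at 1.33 and 1.42. In early anagen Hspa1a was at 13.7 and Dct at 10.2, with means of 2.03 and 41.4 UMIs a cell. The means of Hmox1 and Slc7a11 there were 0.168 and 0.0424 UMIs. In the bulb Hspa1a was at 1.20 and Dct at 7.67. The Fano factor and the share in the highest 5% of cells both depend on the mean. In early anagen Cat, with a Fano factor of 1.02 and 0.223 UMIs a cell, had 33.6% of its UMIs in those cells. Genes at unlike levels, or 1 gene at unlike levels in the libraries, are therefore not ranked by either measure.

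Across cells within each library, few genes went with the members. Each library had its own depth here, 10000 UMIs a cell in early anagen and 5000 UMIs a cell in the bulb. With unlike depths, the numbers of genes and the values of r are not compared between the libraries. In 2785 early-anagen cells the log2 counts of Prdx1 correlated at r = 0.3 or more with 23 genes, led by Ppia (0.53), Ndufa4 (0.39) and Pfn1 (0.39), and those of Txn1 with 8, led by H2afz (0.37), Ybx1 (0.35) and Ppia (0.33). In 3734 bulb cells Prdx1 reached 0.37 with Fth1, the ferritin heavy chain, and with no other gene at 0.3. None of the other 8 members reached 0.3 with any of 7438 genes in early anagen or 6560 in the bulb, the highest being 0.20 for Hmox1 in early anagen and 0.22 for Slc7a11 in the bulb. The points are cells of the same library, and for the sparse members such values are no finding.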

How the data were processed

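The deposited matrices hold whole-number UMI counts per gene and barcode, which the authors made with Cell Ranger 6.0.1 on mm10, per the submitters' processing notes. The study's methods name the 10x Genomics mm10 (GRCm38) reference package. The early-anagen library was made with the v3 kit and the bulb library with the v2 kit. Groups follow the sample titles. Genes were matched by gene ID, and promoter coordinates are GRCm38.p6.

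Cells passed the limits in the report, which follow the study's UMI and mitochondrial limits. Its clusters were replaced by the Dct and keratin limits, so cells near them may differ from the study's. The study's sort discriminated doublets, and no doublet caller was run here; leaving out the 5% of cells with most UMIs was an alternative. Counts were summed over cells and given as CPM, the UMIs of a gene in each 1000000. Intervals were exact (Poisson, conditional binomial for ratios, Clopper-Pearson for shares, 95%). With 1 library per condition no test was made and cells were not used as replicates. A gene was counted as different at 2-fold between libraries or 1.5-fold in a split, where it reached 10 CPM in 1 group or both, with no pseudocount. Cells were thinned without replacement to 10000 or 5000 UMIs with a fixed seed, and 447 bulb cells at or under 10000 UMIs were left out of the first. Correlations used log2(UMIs + 1). Ratios, intervals and thinning were tested on simulated data.

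The 10 genes, the pathway lists (regulators, glutathione, thioredoxin and peroxiredoxin, superoxide and copper, haem, iron and metal, NADPH supply, lipid peroxidation, amino acid stress, dissociation and pigmentation) and the tests were chosen with earlier results of these data known. All 10 genes are described, Nfe2l2, Keap1 and Bach1 are always given, and other list genes are named when past the fold, up to 3 per list and direction. Gclc and Gss were added after their values were seen, to place Gclm beside the enzymes of its pathway. Alternatives used a total without mitochondrial, ribosomal protein and pigmentation genes (the reduced total), TMM factors (edgeR 4.0.16 in R 4.3.3), other cell limits, depths, thinning seeds and no CPM minimum. Software was Python 3.11.15, numpy 2.4.6, scipy 1.17.1 and matplotlib 3.10.9. The telogen library of the study was not analysed here.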

Additional observations from a re-analysis of the deposited data

How the results depend on the processing

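Leaving out a replicate was not possible with 1 library per condition, and intervals cover counting error only, so no value here measures the spread between mice. No paired analysis was possible because the labels give no replicate numbers, each condition has 1 library and no test was made. Differences in depilation, kit, age and dissociation are part of every ratio between the libraries. Nqo1 and, in the Oca2 split, Slc7a11 had few UMIs and wide intervals.

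Between bulb and early anagen, Hmox1 and Slc7a11 were at least 2-fold higher under all 14 alternatives. The median log2 ratio of the antioxidant genes, 0.46, was 0.77 with TMM scaling, 0.64 in cells without Mki67 or Top2a UMIs, 0.50 with the mean of each cell's CPM, 0.50 at 5000 UMIs a cell, 0.49 without any Krt10 or Krt14 UMI, 0.47 without the 5% of cells with most UMIs, 0.42 without the 25% of cells with the highest dissociation share, 0.30 with the reduced total and 0.30 with no CPM minimum. The count of 1 gene at least 2-fold lower (Sod1) became 0 with TMM scaling and 0 in cells without Mki67 or Top2a UMIs. Among the named list genes Gsr, Acsl4 and Atf4 were short of 2-fold with TMM scaling, Hmox2 and Ccs with the reduced total, and Gsr, Ccs and Mthfd2 in cells without Mki67 or Top2a UMIs. Gsr was also short of it under 5 others. With the reduced total Sod2 (-0.10), Gclm (-0.037) and Cat (-0.0098) changed sign.

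In the Oca2 split the count of 1 higher gene (Hmox1) became 2 with no CPM minimum, when Nqo1 entered. Prdx1 changed sign with TMM scaling (-0.020), under 10% mitochondrial UMIs (-0.0100), at 2 or more Oca2 UMIs (-0.038) and with another thinning seed (-0.0051), and Txn1 in cells without Mki67 or Top2a UMIs (0.047). TMM scaling moved the share of past-fold genes that were higher from 47.7% to 36.5%. The Oca2 split of the bulb cells was not run under other settings.

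In the cycling split the count of 1 lower gene (Hmox1) became 0 without the 5% of cells with most UMIs, without the 25% with the highest dissociation share, under 10% mitochondrial UMIs, with all UMIs, and among cells without Oca2 UMIs. The count of 0 higher genes became 1 without any keratin UMI, under 10% mitochondrial UMIs and with no CPM minimum, each time through Slc7a11. The reduced total moved the share of past-fold genes that were higher from 70.1% to 57.4%. The number of antioxidant genes in over 50% of early-anagen cells, 4 at 5000 UMIs, was 7 with all UMIs.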

Other observations

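Genes of the amino acid stress list, which ATF4 controls and to which Slc7a11 is often counted, took different directions between the libraries. Of 6 at 10 CPM or more none was at least 2-fold higher in the bulb and 3 were lower, beside 16.3% and 28.7% of 8020 genes. The lower ones were Phgdh, the first enzyme of serine synthesis (-5.31), the mitochondrial folate enzyme Mthfd2 (-1.66) and Atf4 itself (-1.27). Phgdh reached 10 CPM in early anagen alone. Ddit3 (0.06) and Psat1 (-0.79) were short of 2-fold. Below 10 CPM in both libraries, Chac1 gave 3.16 (1.79 to 4.87, 33 UMIs in the bulb and 5 in early anagen). Sesn2, also below it, gave 1.36 (1.13 to 1.60) and Trib3 -0.65 (-1.65 to 0.27). Asns, the asparagine synthetase, was at 53.8 CPM in early anagen and 107 CPM in the bulb (0.99), and it passed 2-fold with TMM scaling (1.30); it was named after its value was seen. Within early anagen, Phgdh (1.45), Mthfd2 (1.28) and Psat1 (0.72) were higher in cycling cells, and Mthfd2 (-0.84) and Psat1 (-0.76) were lower in Oca2+ than in Oca2- cells, where Phgdh (-0.56) was short of 1.5-fold. Atf4 passed 1.5-fold neither by cycling (-0.20) nor by Oca2 (-0.17).

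The transferrin receptor Tfrc, through which cells import iron, reached 11.0 CPM in Oca2+ early-anagen cells against 27.8 CPM in the Oca2- cells, a log2 ratio of -1.34 (-1.90 to -0.83), opposite to Hmox1 in the same split. Slc40a1, the iron exporter, had 337 UMIs in early anagen and 3 in the bulb, below 10 CPM in both. Within the pigmentation list, 11 of 13 genes were at least 2-fold higher in the bulb, beside 16.3% of 8020 genes. Oca2 (4.46), Rab38 (3.64) and Gpr143 (3.61) had the largest ratios.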
